A study of Mus musculus with 12 samples.

Results

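Meiotic prophase and recombination genes were followed across mouse ovaries and testes with and without Foxl2. The group held 33 genes, taken by their annotated symbol because their products act in meiotic entry, chromosome pairing, recombination or the later steps of germ cell division. On the adult arrays 31 of them were measured, of 19938 genes in all, and on the arrays of postnatal day 3 (P3) 30 were measured, of 18194 genes. Mnd1 lay on an adult probe set that a second gene shared, Rad21l and Hfm1 were not analysed at P3, and Rnf212 was not analysed at either age.

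The series held 12 arrays of gonads with and without Foxl2, a transcription factor that keeps granulosa cells, the supporting cells of the ovary, in their female state. The 8 adult arrays were single organs of single mice aged 8 weeks: 2 wild-type ovaries, 3 ovaries of the genotype Foxl2 flox/flox x CreEBD, called mutant ovaries here, and 3 wild-type testes, each from part of 1 testis. The 4 P3 arrays were 2 pools of wild-type ovaries and 2 pools of Foxl2 KO ovaries, each made from more than 10 females. The sources used here name neither the promoter behind the Cre, nor the time of deletion, nor any treatment of the controls. Adult values are on the log2 scale, where a difference of 1 is a factor of 2, and P3 values are linear MAS5 signals from another platform, so the 2 ages were never compared by level.

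In meiotic prophase, homologous chromosomes pair along a protein scaffold, the synaptonemal complex, while cohesin rings hold sister chromatids together. Spo11 cuts the DNA at sites marked by Prdm9, recombinases pair the broken ends with the homologous chromosome, and a few of these events mature into crossovers. Oocytes pass through these stages before birth and then arrest, whereas in the adult testis new spermatocytes enter them throughout life.

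Foxl2 was low in every mutant array. Adult wild-type ovaries read 8.75 and 8.81 against 5.81, 6.04 and 5.73 for mutant ovaries, and P3 wild-type pools gave signals of 814.5 and 829.9 against 186.4 and 153.7 for KO pools. By 3 marker lists the tissues matched their labels. All 10 spermatid markers and all 8 markers of germ cells of both sexes were higher in testis than in wild-type ovary. All 9 granulosa markers were lower. Other lists set these tissues apart less: of 9 Sertoli markers 5 were called higher and 2 lower in testis. Of 10 spermatogonia markers 3 were called higher and none lower. Within groups the arrays correlated at r of 0.969 to 0.996 across genes. The wild-type ovaries stood apart from each other in germ cell RNA: wild-type ovary 1 exceeded wild-type ovary 2 for 18 of 19 oocyte markers, by a median of 1.66, and summed linear levels of these markers were 4357 and 1121. The 3 mutant ovaries lay between them, at 3017 to 3595. In such bulk samples, fewer cells of a type and less RNA per cell cannot be told apart.

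All 31 measured meiotic genes were higher in adult testis than in adult wild-type ovary. Over all genes, 24.4% were called higher and 35.9% lower in this comparison, by limma at an adjusted p under 0.05. The median difference of the meiotic genes was 2.68, against -0.15 over all genes. For every meiotic gene the lowest testis value lay above the highest of the 5 adult ovaries. Over all genes, 5675 of 19938 were higher in testis without overlap with the wild-type ovaries, and the rule with all 5 ovaries was not counted. The size differed widely among the meiotic genes: 27 of 31 differed by at least 1, 14 by at least 3 and 5 by at least 5. Testis markers moved with them: summed linear levels of the 10 spermatid markers were 21200 to 22970 in testes and 157.9 to 160.4 in wild-type ovaries, and the part of each germ cell stage in the meiotic values was not tested.

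Genes of the synaptonemal complex and of cohesin held the 6 largest differences. Syce1, a protein of the central element of the complex, was 9.98, 9.99 and 9.97 in testes against 4.14 and 3.88 in wild-type ovaries, a difference of 5.97 ± 0.14 (SE; adjusted p = 1.6e-10). Sycp3, which forms the axes along each chromosome, was 8.21, 8.19 and 8.35 in testes against 2.86 and 2.36 in ovaries, a difference of 5.64 ± 0.25 (adjusted p = 1.1e-08). Sycp1, the transverse filament that zips the axes together, was 7.97, 7.81 and 8.29 in testes against 2.54 and 2.77 in ovaries, a difference of 5.36 ± 0.16 (adjusted p = 7.1e-10). For these 3 genes the gap between tissues was many times the spread within either. Sycp2, the partner of Sycp3 in the axis, was 8.10, 8.18 and 8.31 in testes against 3.40 and 3.09 in ovaries, a difference of 4.95 ± 0.16 (adjusted p = 9.8e-10). Syce2 and Tex12, which build the central element with Syce1, rose by less: Syce2 by 3.54 ± 0.23 and Tex12 by 2.02 ± 0.26. All 6 genes of the complex rose, with a median of 5.16.

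Among the cohesins, Stag3, the meiotic ring subunit of the stromal antigen family, was 9.84, 9.76 and 9.78 in testes against 4.29 and 3.97 in ovaries, a difference of 5.66 ± 0.14 (adjusted p = 1.9e-10). Smc1b, the meiotic form of a core ring subunit, was 8.94, 8.98 and 8.90 in testes against 4.04 and 3.19 in ovaries, a difference of 5.33 ± 0.27 (adjusted p = 3.3e-08). Rec8 and Rad21l are alternative subunits that close the ring. Rec8 rose by 2.86 ± 0.18. Rad21l was 3.80, 3.83 and 3.66 in testes against 2.86 and 2.49 in ovaries, a difference of 1.09 ± 0.17 (adjusted p = 2.1e-04). All 4 cohesin genes thus rose, but Rad21l by far less than Stag3. Rad21l, Stra8 and Mei4 lay under the array median, taken over all probe sets, on every adult array.

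Hormad1 and Hormad2, which coat unpaired chromosome axes, rose by 4.02 ± 0.20 and 3.40 ± 0.12. A second probe set of Hormad1 gave 5.26. Trip13, the ATPase that removes them and that also serves the spindle checkpoint of ordinary mitosis, was 7.28, 7.17 and 7.10 in testes against 6.77 and 6.56 in ovaries, a difference of 0.52 ± 0.13 (adjusted p = 0.0058). Its groups did not overlap, although the step was small beside that of the other axis genes.

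Genes of break formation were split in size. Spo11, which makes the breaks, rose by 4.72 ± 0.19. Mei1, also needed for breaks, rose by 1.45 ± 0.13. Prdm9, the methyltransferase that places them, was 5.49, 5.12 and 5.20 in testes against 4.47 and 4.20 in ovaries, a difference of 0.93 ± 0.15 (adjusted p = 3.2e-04). Mei4, an axis protein needed for breaks, had the smallest difference of the 31 genes: 4.28, 4.14 and 4.21 in testes against 3.93 and 3.87 in ovaries, or 0.31 ± 0.12 (adjusted p = 0.046). The Mei4 call ended without any 1 of the 5 arrays, with adjusted p of 0.114, 0.059 and 0.087 without testis 1, 2 and 3 and 0.095 and 0.161 without wild-type ovary 1 and 2. Stra8, the retinoic acid target that opens meiosis, was likewise among the small differences, at 4.38, 4.06 and 4.39 in testes and 3.34 and 3.30 in ovaries, a difference of 0.95 ± 0.13 (adjusted p = 7.3e-05).

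All 5 measured genes of strand exchange rose, with a median of 2.30. They were Dmc1, the meiotic recombinase (2.54 ± 0.16), its cofactor Psmc3ip (2.68 ± 0.17), Rad51c, which also acts in recombination repair in somatic cells (2.30 ± 0.19), Tex15 (2.09 ± 0.31) and Brca2. Brca2, which loads recombinases in meiotic and somatic cells alike, was 6.80, 6.72 and 7.0 in testes against 6.0 and 5.19 in ovaries, a difference of 1.24 ± 0.22 (adjusted p = 5.5e-04). All 5 measured crossover genes rose, with a median of 1.91: the DNA helicase Hfm1 by 4.26 ± 0.25, Tex11, an X-linked crossover factor, by 2.64 ± 0.17, the MutS homologs Msh4 and Msh5 by 1.91 ± 0.14 and 1.26 ± 0.18, and the MutL homolog Mlh3 by 1.34 ± 0.20. Of the genes that act in later spermatogenesis, Mns1, a protein of the sperm flagellum and of motile cilia, rose by 4.48 ± 0.14, the meiotic cyclin Ccna1 by 4.37 ± 0.16 and Tex14, which keeps the bridges between germ cells open, by 3.53 ± 0.16.

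**Figure D1:**
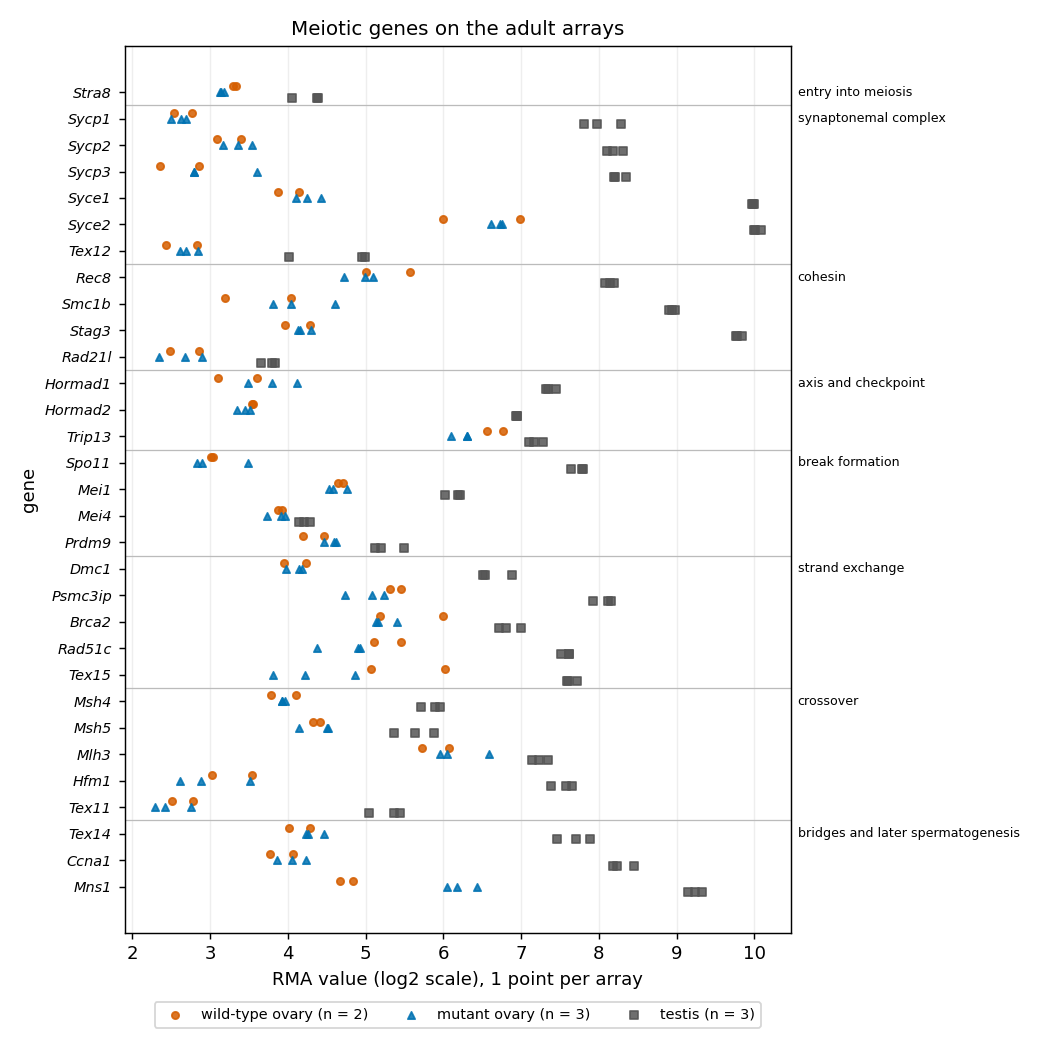
RMA value (log2 scale, horizontal axis) of the 31 measured meiotic genes on each adult array, 1 point per array, with genes ordered by role. The 3 testes lie to the right of all 5 ovaries for every gene, by little for Mei4 and Trip13, and Mns1 is the gene for which the 3 mutant ovaries lie clearly to the right of both wild-type ovaries.

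Promoter windows were read from RefSeq (build GRCm38.p6), 250 bases before and 50 after each transcript start, and 30 of the 33 genes were matched, in 35 windows. Sites known from work on germline genes were searched on both strands: the E-box CACGTG, bound by Mga and Max, the E2F site GCGGGAA, the Stra8 motif CNCCTCAG and the Myb site AACNGNC. An E-box lay in a window of 7 of the 30 genes, against 8.09% of all 27025 genes in the table, and an E2F site in 12 of 30, against 5.29%. Both lay in the same window for 6 of 30, against 0.514%: Sycp3, Syce2, Tex12, Stag3, Hormad1 and Rnf212. The Stra8 motif was present for 7 of 30, against 9.12%, and the Myb site for 20 of 30, against 36%. These matches are descriptions of letters, and binding was not measured.

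The 250 bases before the start are shown for 3 genes of the chromosome axis and the synaptonemal complex. They were the genes whose 250 bases held an E-box or E2F site and were reached by no annotated gene body, the gene's own included. The level in testis was not a criterion: Syce1 and Sycp2, with testis differences of 5.97 and 4.95, held neither site in their windows. Sequences run 5′ to 3′ on the strand of the gene, with E-boxes and E2F sites in capitals. Sycp1 lies on the minus strand (chr3:102936101-102936350), Sycp3 on the plus strand (chr10:88459337-88459586) and Hormad1 on the plus strand (chr3:95559427-95559676).
Sycp1: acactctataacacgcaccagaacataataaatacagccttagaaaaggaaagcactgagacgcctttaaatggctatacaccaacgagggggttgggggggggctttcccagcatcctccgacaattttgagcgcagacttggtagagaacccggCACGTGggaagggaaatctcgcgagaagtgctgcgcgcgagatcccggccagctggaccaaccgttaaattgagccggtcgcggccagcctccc
Sycp3: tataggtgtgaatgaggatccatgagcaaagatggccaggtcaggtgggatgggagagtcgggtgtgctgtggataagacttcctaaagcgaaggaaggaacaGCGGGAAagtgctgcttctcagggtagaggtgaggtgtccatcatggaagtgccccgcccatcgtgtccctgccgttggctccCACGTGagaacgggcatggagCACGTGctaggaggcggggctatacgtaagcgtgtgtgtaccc
Hormad1: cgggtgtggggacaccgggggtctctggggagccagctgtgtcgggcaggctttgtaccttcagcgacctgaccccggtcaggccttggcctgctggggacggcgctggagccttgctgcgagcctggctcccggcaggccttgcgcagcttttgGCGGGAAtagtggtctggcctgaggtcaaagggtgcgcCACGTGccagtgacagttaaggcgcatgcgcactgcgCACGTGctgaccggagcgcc
The single E-box of Sycp1 begins at position -94 from the start. Sycp3 has E-boxes at -64 and -43 and an E2F site at -147. Hormad1 has E-boxes at -57 and -20 and an E2F site at -95. The windows of Tex14 and Rad51c, which start in opposite directions on chromosome 11, share 210 bases, so their common E2F site is the same one counted for both genes.

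**Figure D2:**
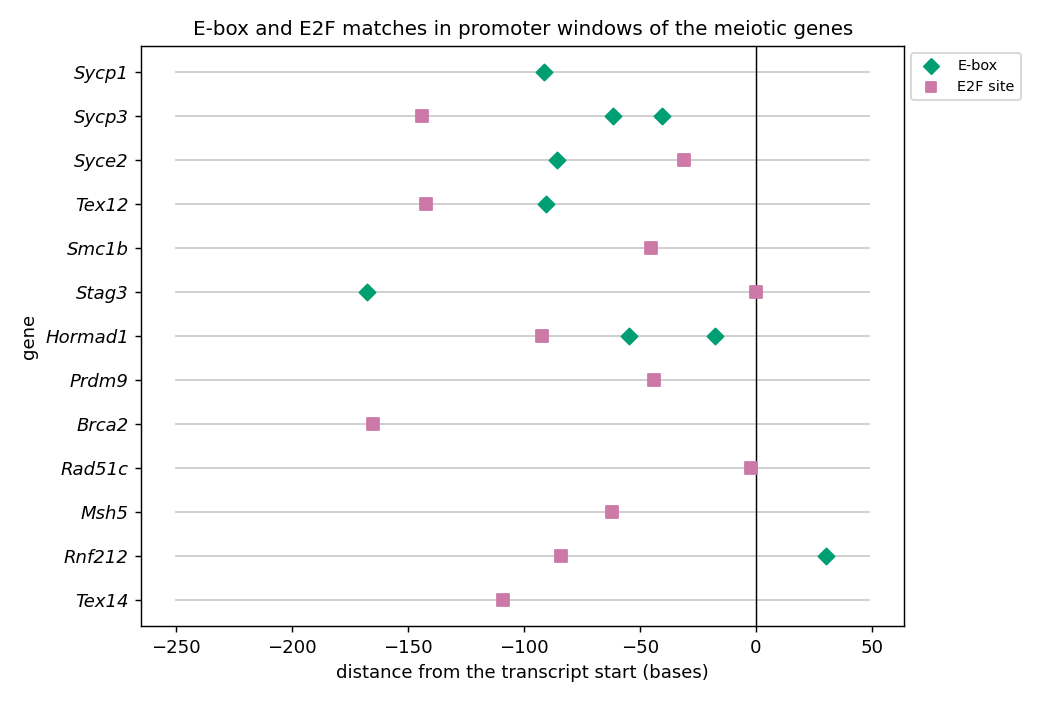
Position of E-box (diamond) and E2F (square) matches in the promoter windows of the 13 meiotic genes with at least 1 of them, as distance in bases from the transcript start (0, vertical line), with 1 window per gene. Most matches lie before the start, and Sycp3, Syce2, Tex12, Stag3, Hormad1 and Rnf212 carry both kinds.

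In adult mutant ovaries, 3 of the 31 meiotic genes differed from wild-type ovaries: Mns1 rose, and Tex15 and Trip13 fell. Over all genes 9.55% were called higher and 6.66% lower. The median difference of the meiotic genes was 0.0025, against -0.025 over all genes, and 27 of 31 differed by less than 0.5 in either direction. At an unadjusted p under 0.05, 2 were higher and 3 lower, and the share of all genes at that threshold was not counted. The synaptonemal complex, cohesin, break formation and crossover genes had no member past the threshold, and their medians were 0.16, 0.016, 0.0092 and -0.014.

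Mns1 read 4.67 and 4.84 in wild-type ovaries, 6.05, 6.17 and 6.43 in mutant ovaries, and 9.23, 9.32 and 9.15 in testes. The 3 mutant values lay above both wild-type values and below all testes. The difference from wild type was 1.46 ± 0.14 (adjusted p = 7.7e-05), and leaving out any 1 array gave 1.36 to 1.55, each past the threshold. Mns1 also serves motile cilia, and none of the 6 measured markers of ciliated cells of the oviduct or rete passed the threshold. Their summed linear levels were 124.8 and 138.7 in wild-type and 136.6 to 151.5 in mutant ovaries, and 3000 to 3163 in testes. None of the 10 spermatid markers passed either, with sums of 157.9 and 160.4 in wild-type and 140.0 to 155.8 in mutant ovaries. Sertoli markers rose in the same ovaries, 8 of 9, and their part in the Mns1 difference was not tested.

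Tex15, which is needed to load recombinases and to silence transposons in male germ cells, was 6.02 and 5.07 in wild-type ovaries and 4.22, 4.86 and 3.81 in mutant ovaries. All mutant values lay below both wild-type values, but the 2 wild-type ovaries were themselves apart. The difference was -1.25 ± 0.31 (adjusted p = 0.022). Its call ended without wild-type ovary 1 (-0.78, adjusted p = 0.114), mutant ovary 1 (-1.21, adjusted p = 0.063) or mutant ovary 3 (-1.0, adjusted p = 0.061), and with the ovaries fitted alone (adjusted p = 0.079). None of the 19 oocyte markers and none of the 8 markers of germ cells of both sexes passed in the same comparison, with medians of 0.38 and 0.41, and their part in the Tex15 difference was not tested.

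Trip13 was 6.77 and 6.56 in wild-type ovaries and 6.10, 6.30 and 6.30 in mutant ovaries, without overlap. The difference was -0.43 ± 0.13 (adjusted p = 0.049). It missed the threshold without wild-type ovary 1 (-0.33, adjusted p = 0.177), without mutant ovary 1, 2 or 3 (-0.37, -0.47 and -0.47, with adjusted p of 0.125, 0.063 and 0.071), and with the ovaries fitted alone (adjusted p = 0.156). Markers of dividing cells fell in the same ovaries, 9 of 9, with a median of -1.75 and summed linear levels of 1675 and 1409 in wild-type against 482.5 to 612.7 in mutant ovaries. Their part in the Trip13 difference was not tested.

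Next in size, without passing the threshold, were Smc1b and Rad51c. Smc1b was 4.04 and 3.19 in wild-type and 4.04, 4.61 and 3.81 in mutant ovaries, a difference of 0.54 ± 0.27 (adjusted p = 0.216), with overlapping groups, and it was 0.12 without wild-type ovary 2 (adjusted p = 0.818) and 0.31 without mutant ovary 2 (adjusted p = 0.467). Rad51c was 5.45 and 5.11 in wild-type and 4.93, 4.90 and 4.38 in mutant ovaries, a difference of -0.54 ± 0.19 (adjusted p = 0.079), without overlap. Without wild-type ovary 1, Smc1b (0.97), Hormad1 (0.71) and Syce2 (0.70) were called higher along with Mns1. With all arrays Hormad1 differed by 0.46 on this probe set and by -0.23 on its second one, so its direction was not shared by both. Without wild-type ovary 2, Brca2 (-0.77), Rad51c (-0.72) and Rec8 (-0.63) were called lower along with Tex15 and Trip13. Wild-type ovary 1 exceeded wild-type ovary 2 for 25 of the 31 genes and for 10528 of all 19938, and the median gap over the 31 was 0.28.

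Counting groups that did not overlap, 1 of the 31 genes was higher in mutant ovaries (Mns1) and 6 were lower (Stra8, Hormad2, Trip13, Psmc3ip, Rad51c and Tex15). Over all genes 19.3% were higher and 20.6% lower without overlap. The lower count is close to that background, and the higher count, 1 of 31, is below its own. For 22 of the 31 genes, the wild-type ovaries differed from each other by more than the mutant and wild-type means did. A gap between single arrays varies more than a gap between means, and this share was not counted over all genes. The count of 22 is therefore not read as a trait of the meiotic genes, in either direction.

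**Figure D3:**
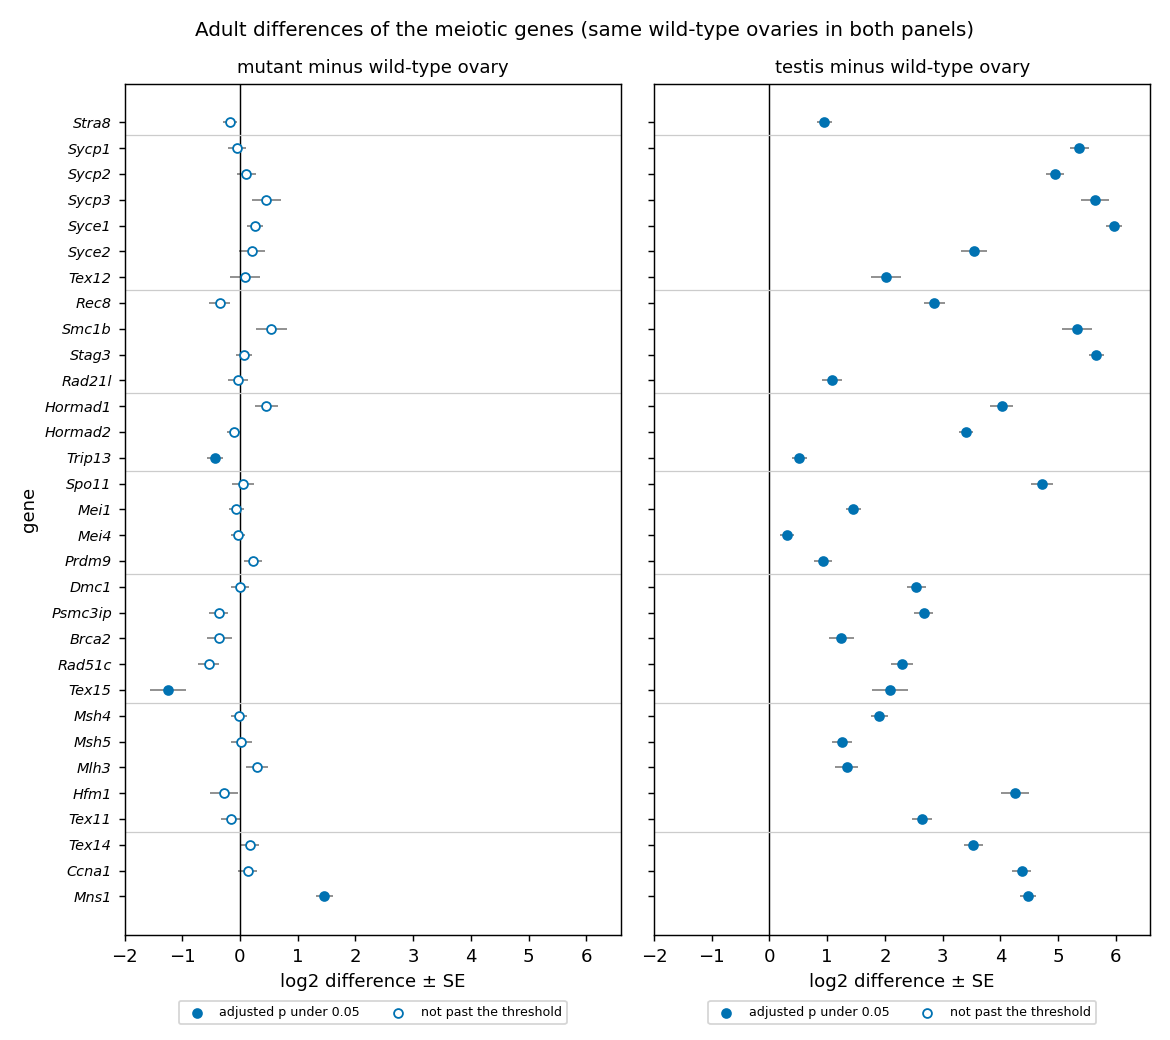
Difference of mutant from wild-type ovary (left) and of testis from wild-type ovary (right) for the 31 meiotic genes, on the log2 scale with the SE of the fit. Filled points have an adjusted p under 0.05: on the left Mns1, Tex15 and Trip13, on the right all 31. The 2 panels share the wild-type ovaries.

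Mutant ovaries, in which Sertoli markers were raised, were also set against testes. All 31 meiotic genes were lower in mutant ovaries than in testes, where 24.3% of all genes were called lower and 37.5% higher. The median was -3.04, against 0.14 over all genes. This comparison shares the testes and the mutant ovaries with those above.

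The largest differences again belonged to the synaptonemal complex and cohesin. Syce1 was 4.11, 4.43 and 4.25 in the mutant ovaries, a difference of -5.71 ± 0.13 from the testes, and Stag3 was 4.16, 4.30 and 4.13, a difference of -5.60 ± 0.12. Sycp1 was 2.50, 2.63 and 2.69 in the mutant ovaries, a difference of -5.42 ± 0.15. Sycp3 was 2.80, 3.61 and 2.80, a difference of -5.18 ± 0.22, and mutant ovary 2 was the high one. Sycp2 was 3.36, 3.54 and 3.17, a difference of -4.84 ± 0.14. With Smc1b at -4.78 ± 0.24, the adjusted p of these 6 genes lay between 6.2e-11 and 2.5e-08. For each of them every mutant value lay below every testis value.

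The 6 genes with the smallest steps between testis and wild-type ovary were read here too. Brca2 was 5.41, 5.14 and 5.16 in mutant ovaries (-1.60 ± 0.20), and Stra8 was 3.18, 3.13 and 3.14 (-1.13 ± 0.11). Rad21l was 2.68, 2.90 and 2.34 (-1.12 ± 0.15), and Prdm9 was 4.47, 4.62 and 4.59 (-0.71 ± 0.14). Trip13 differed from the testes by -0.95 ± 0.12. All of these groups were apart, and the adjusted p of these 5 genes lay between 6.8e-06 and 9.2e-04. Mei4 was 3.96, 3.73 and 3.91 in mutant ovaries, a difference of -0.34 ± 0.11 (adjusted p = 0.018), and its call ended without testis 1 (-0.31, adjusted p = 0.060) or mutant ovary 2 (-0.27, adjusted p = 0.068). Tex15 differed by -3.34 ± 0.28 and Mns1 by -3.02 ± 0.13.

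**Figure D4:**
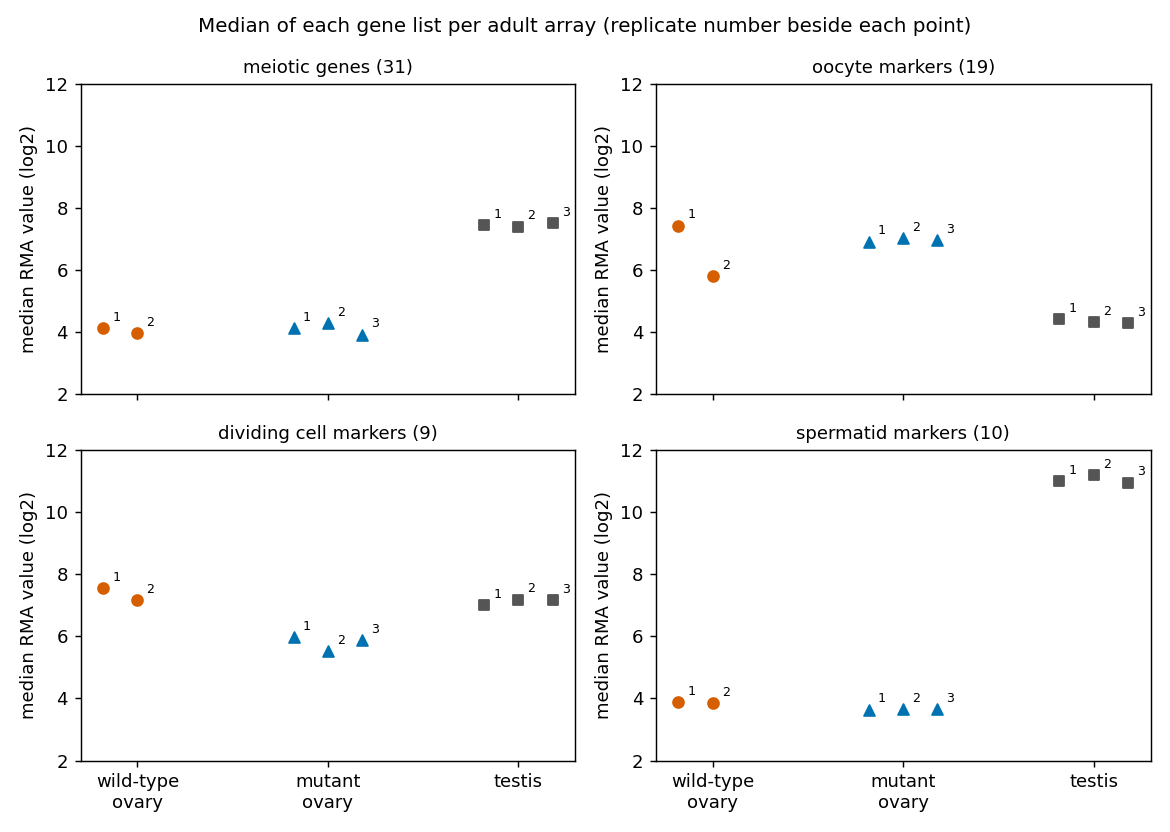
Median RMA value (log2 scale) of the 31 meiotic genes, 19 oocyte, 9 dividing cell and 10 spermatid markers on each adult array, with the replicate number beside each point. Meiotic medians are 3.92 to 4.30 in the 5 ovaries and 7.39 to 7.51 in the testes, while the oocyte median splits the 2 wild-type ovaries (7.43 and 5.81) and the dividing cell median is lower in the mutant ovaries (5.52 to 5.98) than in the wild-type ovaries (7.55 and 7.18).

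In newborn ovaries, none of the 30 measured meiotic genes passed the threshold between Foxl2 KO and wild-type pools, by limma on log2(signal + 16). At an unadjusted p under 0.05, 2 were higher (Rec8 and Mei4) and 1 lower (Tex14), and the share of all genes at that threshold was not counted. At an adjusted p under 0.05 the test called few genes at this age: 0.137% of all genes were higher and 0.187% lower. The median difference of the meiotic genes was 0.098, against -0.0051 over all genes, and 23 of 30 differed by less than 0.5.

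No gene of the synaptonemal complex passed the threshold at P3. Sycp3 was 17094.5 and 15934.8 in wild-type and 17752.3 and 18015.2 in KO pools, a difference of 0.12 ± 0.12 (adjusted p = 0.853). Syce2 was 11473.0 and 13488.4 in wild-type and 11033.1 and 10554.4 in KO pools, a difference of -0.20 ± 0.13 (adjusted p = 0.722). Sycp1 was 592.4 and 667.9 in wild-type and 636.1 and 613.2 in KO pools, with overlap. The 6 genes of the complex differed by -0.20 to 0.33.

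Tex14 was 1318.1 and 1566.0 in wild-type pools and 577.5 and 753.2 in KO pools, without overlap. The difference was -1.10 ± 0.19 (adjusted p = 0.092), which missed the threshold. It passed with genes of low signal left out of the table (adjusted p = 0.035) but not without any 1 pool (-1.29 to -0.92). Rec8 was 142.4 and 173.1 in wild-type and 304.7 and 422.1 in KO pools, a difference of 1.12 ± 0.28 (adjusted p = 0.228), also without overlap. Mei4 was 32.3 and 5.5 in wild-type and 110.0 and 104.1 in KO pools, a difference of 1.93 ± 0.48 (adjusted p = 0.217) that moved from 1.06 to 2.88 with pseudocounts of 64 and 1. Its signals were under the array median in all 4 pools. Rad51c was 89.1 and 66.0 in wild-type and 297.6 and 77.3 in KO pools, a difference of 0.88 ± 0.59 (adjusted p = 0.739) that was 0.0072 without KO pool 1, the single high pool.

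Stag3, a cohesin with a large testis difference, and Tex15 and Trip13, which fell in adult mutants, had overlapping groups at P3. Stag3 was 318.8 and 419.8 in wild-type and 339.9 and 380.4 in KO pools. Tex15 was 4434.1 and 6971.0 in wild-type and 5931.9 and 6406.5 in KO pools, a difference of 0.15 ± 0.21 (adjusted p = 0.904). Trip13 was 1121.2 and 1596.3 in wild-type and 1575.8 and 1474.7 in KO pools, a difference of 0.19 ± 0.19 (adjusted p = 0.856). For all 3, both KO values lay inside the range of the wild-type pools. Mnd1, the partner of Psmc3ip in strand exchange and measured only at this age, was 1811.5 and 1922.8 in wild-type and 2018.6 and 1836.8 in KO pools, with overlap. Stra8 was 123.7 and 71.6 in wild-type and 32.5 and 118.3 in KO pools, also with overlap. Probe sets of a gene disagreed for Dmc1, -0.75 on the probe set used and 0.041 on another. They also disagreed for Trip13, for which the other probe sets gave 0.0070 and -0.76. The Dmc1 set at 0.041 (signals of 25.5 to 29.6) and the Trip13 set at -0.76 (5.0 to 76.1) lay under the array median in every pool.

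Without overlap, 8 of the 30 genes were higher in KO pools (Sycp2, Sycp3, Rec8, Hormad1, Hormad2, Mei4, Msh5 and Mns1) and 4 were lower (Syce2, Dmc1, Psmc3ip and Tex14). Over all genes these shares were 19.3% and 19.7%. Oocyte markers had a median of -0.62 in the same comparison, with 2 of 18 lower past the threshold and summed signals of 149300 and 167400 in wild-type against 125000 and 118400 in KO pools. Markers of germ cells of both sexes had a median of -0.096 with none of 7 past it, and dividing cell markers 0.020 with none of 9 past it. The part of these markers in the meiotic values was not tested.

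**Figure D5:**
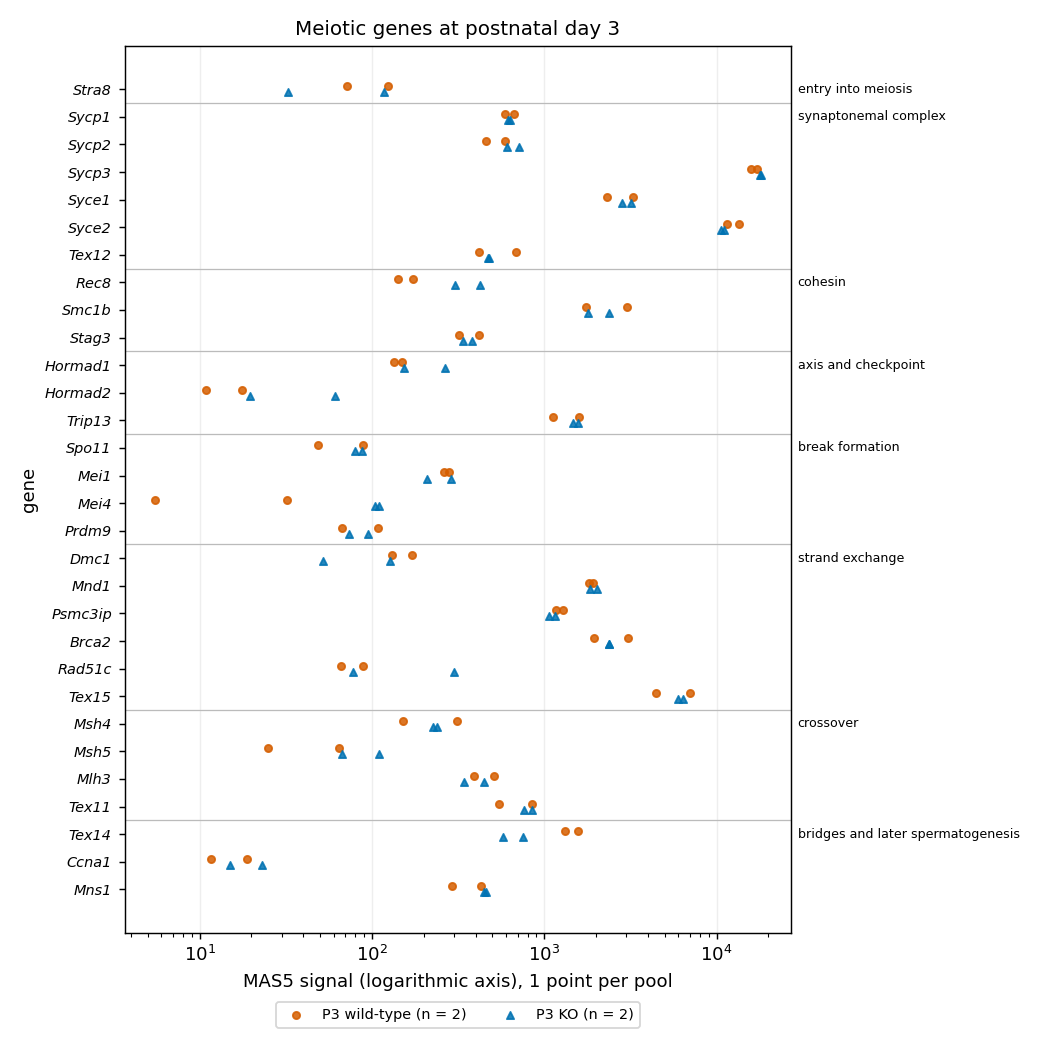
MAS5 signal (logarithmic axis) of the 30 measured meiotic genes in each P3 pool, 1 point per pool, ordered by role. Wild-type and KO pools lie close together for most genes. Tex14 is lower and Rec8 and Mei4 are higher in both KO pools, and none of the 30 passed the threshold.

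Across the 2 ages, which share no arrays, 3 of the 29 genes measured at both had groups without overlap in both ovary comparisons. Over all genes, 19.3% were higher and 20.6% lower without overlap in adults, and 19.3% and 19.7% at P3. The share of all genes without overlap at both ages was not counted, so the 3 genes are only listed. Mns1 was higher at both, by 1.46 in adults and by 0.34 ± 0.24 at P3 (adjusted p = 0.761), where its signals were 292.3 and 431.6 in wild-type and 448.7 and 462.1 in KO pools. The P3 difference of Mns1 was 0.075 without wild-type pool 1 and 0.61 without wild-type pool 2. Psmc3ip was lower at both, with a difference of -0.37 ± 0.17 in adults (adjusted p = 0.176; 5.45 and 5.32 in wild-type, 5.08, 5.24 and 4.73 in mutant ovaries) and of -0.14 ± 0.14 at P3. Hormad2 was lower in adults and higher at P3, and neither difference passed the threshold. Only Mns1 in adults was called among these.

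Other meiotic genes, from a list of 40 that was also chosen with these data known, gave 33 on the adult arrays and 27 at P3. In testis against wild-type ovary 29 of 33 rose and none fell, with a median of 2.13. Among them were Mael (7.12 ± 0.35), a germ granule protein that guards against transposons, and Meig1 (6.45 ± 0.23), needed to build the sperm flagellum. In adult mutant ovaries 4 of the 33 were called higher and 3 lower, shares near the 9.55% and 6.66% of all genes, so the counts do not set the list apart. Those that rose were Meig1 (0.86 ± 0.23), the kinase Cdk2 (0.75 ± 0.13), Tex19.1 (0.68 ± 0.20) and the chaperone Hspa2 (0.57 ± 0.12). Those that fell were Sgo2a, the shugoshin that protects centromeric cohesion (-1.41 ± 0.14), 4930432K21Rik (-0.58 ± 0.16) and Meioc, a partner of the meiotic RNA helicase Ythdc2 (-0.49 ± 0.14). Sgo2a was 5.66 and 5.58 in wild-type and 4.36, 4.09 and 4.19 in mutant ovaries. It also acts in dividing somatic cells, whose markers fell in the same ovaries (9 of 9, median -1.75), and their part in the Sgo2a difference was not tested. At P3 none of the 27 passed.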

How the data were processed

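Adult values were deposited by the authors on a log2 scale, made with RMA in the Affymetrix Expression Console, and P3 values were deposited as MAS5 signals, an intensity on a linear scale, per the submitters' processing notes. No version of these tools is given in the sources. RMA normalizes between arrays and compresses differences of dim probe sets. The labels' protocols name a CodeLink labelling for P3. Adult replicates were single animals and P3 replicates separate pools.

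Probe sets with a single gene (21789 adult, 34958 P3) took their names from the platform annotation, updated through RefSeq GRCm38.p6, and the probe set with the highest mean stood for its gene. With R 4.3.3 and limma 3.58.1, lmFit and eBayes with an intensity trend were fitted to all 8 adult arrays together and to log2(signal + 16) of the 4 P3 arrays. Tests were two-sided, with Benjamini-Hochberg adjustment over all genes and a threshold of 0.05. The number of arrays limits the precision. In data simulated for the P3 comparison over 18194 genes, 43 of 100 genes changed by 2 on the log2 scale and 74 of 100 changed by 4 were recovered. Numbers in the titles were not stated to pair arrays and were not used as pairs, and a check is given with the alternatives.

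The genes and lists were chosen with earlier results of these data known. Values of every array are given for the genes past the threshold in an ovary comparison, or the 4 with the largest difference, and for the 6 largest and 6 smallest testis differences, with others shown for their role. No coordinates on the arrays were used. Alternatives were other choices of probe set, a filter on low values, no trend, a replicate block, centring, ovaries alone, pseudocounts, quantile normalization and leaving out each array.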

Additional observations from a re-analysis of the deposited data

Results flagged for a closer look

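Hormad2, a protein of unpaired chromosome axes, had mean differences of opposite sign at the 2 ages with no overlap between groups at either. In adults it was 3.54 and 3.55 in wild-type and 3.45, 3.52 and 3.35 in mutant ovaries, a difference of -0.11 ± 0.12 (limma, adjusted p = 0.623). At P3 its signal was 10.9 and 17.6 in wild-type and 61.1 and 19.6 in KO pools, a difference of 0.80 ± 0.48 (limma, adjusted p = 0.703). The P3 signals were under the array median in all 4 pools, and the difference was 0.24 without KO pool 1, the single high pool, and 1.36 without KO pool 2. It was 1.27 with a pseudocount of 1 and 0.39 with a pseudocount of 64. The difference between the ages was not tested, since the 2 platforms could not be fitted together.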

How the results depend on the processing

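Of 38 results for single genes, 31 kept their direction and their side of the threshold under every alternative run. Over 422 alternatives, 21 lost a call, 4 gained one and none reversed a called value. The count of meiotic genes called between adult mutant and wild-type ovary was 3, and 1 with the ovaries fitted alone, where 1731 of all genes were called in place of 3232. It ran from 1 to 6 when arrays were left out. A filter on low values kept genes at or above the array median on at least 1 array, and 28 of the 31 adult genes passed. Of the 31, 22 were under that median in all 5 ovaries, the genes left out by the filter among them. The rest of the 22 passed through testis alone, 18 of them above the median in all 3 testes. The genes left out, Stra8, Rad21l and Mei4, were among the 6 smallest testis differences. Dropping them alone moved the median to 3.13 in testis against wild-type ovary and to -3.27 in mutant ovary against testis. At P3, 59 of all genes were called, against 22 with probe sets averaged, 228 with the filter, which keeps 23 of 30 meiotic genes, 0 without the trend and 0 to 22 without 1 pool. The filter called 1 meiotic gene (Tex14). Without 1 pool the P3 median ran from -0.087 to 0.27. The causes of the other shifts were not tested.

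Same-numbered arrays had correlated deviations of -0.0028 to 0.079, and differently numbered adult arrays had -0.068 to 0.067. Among the testes, each mutant ovary correlated best with that of its number. Mutant ovary 3, however, correlated more with wild-type ovary 2 (0.067) than with testis 3 (0.058). At P3, with 2 pools per group, same-numbered and differently numbered values are equal in size by construction. The check could not settle whether arrays were paired. The numbers were not taken as pairs because no pairing is stated. With a replicate block the call of Tex15 (adjusted p = 0.062), that of Trip13 (0.113) and that of Mei4 in testis against wild-type ovary (0.079) ended, which left 1 meiotic gene called in mutant ovary and 30 in testis. At P3 the block called 305 of all genes and 1 meiotic gene (Tex14, adjusted p = 0.0080).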
